A study of Mus musculus with 12 samples.

Results

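A set of 8 genes that mark the primitive streak and the mesoderm was followed through the transcriptomes of G1-phase sorted WT and P53-/- embryonic stem cells (ESCs): Wnt3, Fgf8, T, Eomes, Gsc, Mixl1, Evx1 and Mesp1. They were taken by symbol as a fixed set of 8 of the 24881 symbols in the table of FPKM values (fragments scaled to transcript length and to the mapped fragments of the library), and all 8 were found. RNA was measured in 8 libraries, 2 for each of the 4 combinations of genotype (WT or P53-/-) and culture (serum or 2i). All cells were R1 mouse ESCs carrying the FUCCI reporters, fluorescent proteins that rise and fall with the cell cycle, and all were sorted in G1 phase, so that no other phase was sampled. Serum ESCs were grown with serum and LIF, and 2i ESCs in medium with LIF, the MEK inhibitor PD0325901 and the GSK3 inhibitor CHIR99021, which raises beta-catenin and thus acts like a Wnt signal. P53-/- cells were clones in which CRISPR/Cas9 had cut an exon shared by the Trp53 isoforms. The study names P53-/- clones 1 and 2 for its RNA-seq, but which column holds which clone is not given in the sources used here, so libraries are numbered by their order within a group and clone and library cannot be told apart. Nothing states that the 2 libraries of a WT group came from separate cultures, and p values therefore measure only the spread between these libraries, which may be technical.

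The primitive streak is the site on the posterior epiblast where pluripotent cells ingress at gastrulation to form mesoderm and definitive endoderm. It is set up by Nodal, Bmp4 and Wnt3, and its cells switch on the T-box factors T (Brachyury) and Eomes and the homeobox factors Mixl1, Evx1 and Gsc, with Mesp1 following in nascent mesoderm. ESCs that start to differentiate use the same genes, several of which are direct targets of beta-catenin or of SMAD2/3, the effectors of Nodal.

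Trp53, the targeted gene, was at 77.6 and 75.1 FPKM in WT serum and at 26.8 and 33.7 FPKM in WT 2i. The P53-/- libraries held 16.8 and 3.68 FPKM in serum and 7.25 and 1.88 FPKM in 2i, below both WT libraries of the same culture. The log2 difference was -2.98 in 2i (limma, adjusted p = 0.0547) and -3.26 in serum (adjusted p = 0.15, not past the threshold of 0.1). The call in 2i was lost without P53-/- 2i library 2 (log2 -2.04, adjusted p = 0.25) and without either library of WT 2i or of WT serum (adjusted p of 0.135 to 0.158). With all libraries kept it was lost in 3 of 9 settings (adjusted p up to 0.163). All 10 markers on an ESC list, Pou5f1, Sox2 and Nanog among them, were expressed in every library, with a summed level of 3298 to 4604 FPKM. The sums of marker lists of other cell types moved with culture for several of them. They were 7.73 to 10.5 FPKM in serum and 0.761 to 1.34 FPKM in 2i for fibroblasts, 54.1 to 71.8 and 17.1 to 24.4 FPKM for formative epiblast, 22.5 to 36.8 and 11.8 to 16.5 FPKM for primitive endoderm, 26.5 to 41.1 and 22.6 to 34.2 FPKM for neural cells, and 5.43 to 12.1 and 56.9 to 121 FPKM for trophoblast. In serum the fibroblast sum was almost all Thy1 (7.55 to 10.5 FPKM). In 2i Thy1 was at 0.343 to 0.972 FPKM, beside Col1a1 at up to 0.501 FPKM and Lum at up to 0.305 FPKM. The sum of primitive endoderm was mostly Lama1 and, in serum, Col4a1. Gata4 of the same list was higher in 2i (log2 1.19 in WT and 1.81 in P53-/-, limma adjusted p = 0.044 and 0.00748). It reached the mean of 0.5 FPKM required for testing only through the 2i libraries, so that its rise is no evidence of its own. The part of these other cell types in the culture differences below was not tested. Summed FPKM over all genes also moved with culture, from 6.70e+06 to 7.76e+06 in 2i and from 1.62e+07 to 8.03e+07 in serum, with the lowest and highest serum values both in WT. Genes with small RNA symbols (Snord, Snora, Scarna and Mir) held 83.7% to 85.7% of it in 2i and 93% to 94.9% in serum, and their part in the results below was not tested. Fragments per library were not given, but the low values of 6 of the 8 markers were whole multiples of 1 fragment's worth (within 0.12 of a whole number, tolerance 0.2). From these steps the relative depth of the libraries lay between 0.393 and 1, with WT 2i library 2 the shallowest and WT serum library 1 the deepest. Where fragment numbers are given below they come from this recovery and are approximate. Samples were bulk RNA, so fewer cells expressing a gene and less RNA per cell cannot be told apart.

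Most of these markers were near the floor of detection, and only 3 of the 8, Gsc, T and Eomes, had a mean of at least 0.5 FPKM over the 8 libraries, the level required for testing. In WT 2i the order of the levels was Gsc at 7.50 ± 0.913 FPKM (mean ± SD, n = 2), T at 2.89 ± 1.18 and Eomes at 1.68 ± 0.112. Gsc stood above T and Eomes in both libraries, whereas the gap between T and Eomes was about the SD of T. In P53-/- 2i Gsc was at 8.03 ± 2.55 FPKM, and T (1.13 ± 0.352), Eomes (0.947 ± 0.097) and Wnt3 (0.814 ± 0.591) overlapped. In WT serum it was Eomes at 2.45 ± 0.114 FPKM, with the other 7 markers between 0 and 0.384 FPKM, and in P53-/- serum it was Eomes at 1.75 ± 0.697 FPKM, with the others at no more than 0.314 FPKM. The leading marker was therefore Gsc in 2i and Eomes in serum. The test was limma on log2(FPKM + 0.1), and a gene was called where the Benjamini-Hochberg adjusted p was below 0.1 and the fold change above 1.5. For the 5 markers under the filter, the same test was run over all 18380 genes with a value above 0. Fold changes on this scale understate the change of low genes.

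**Figure D1:**
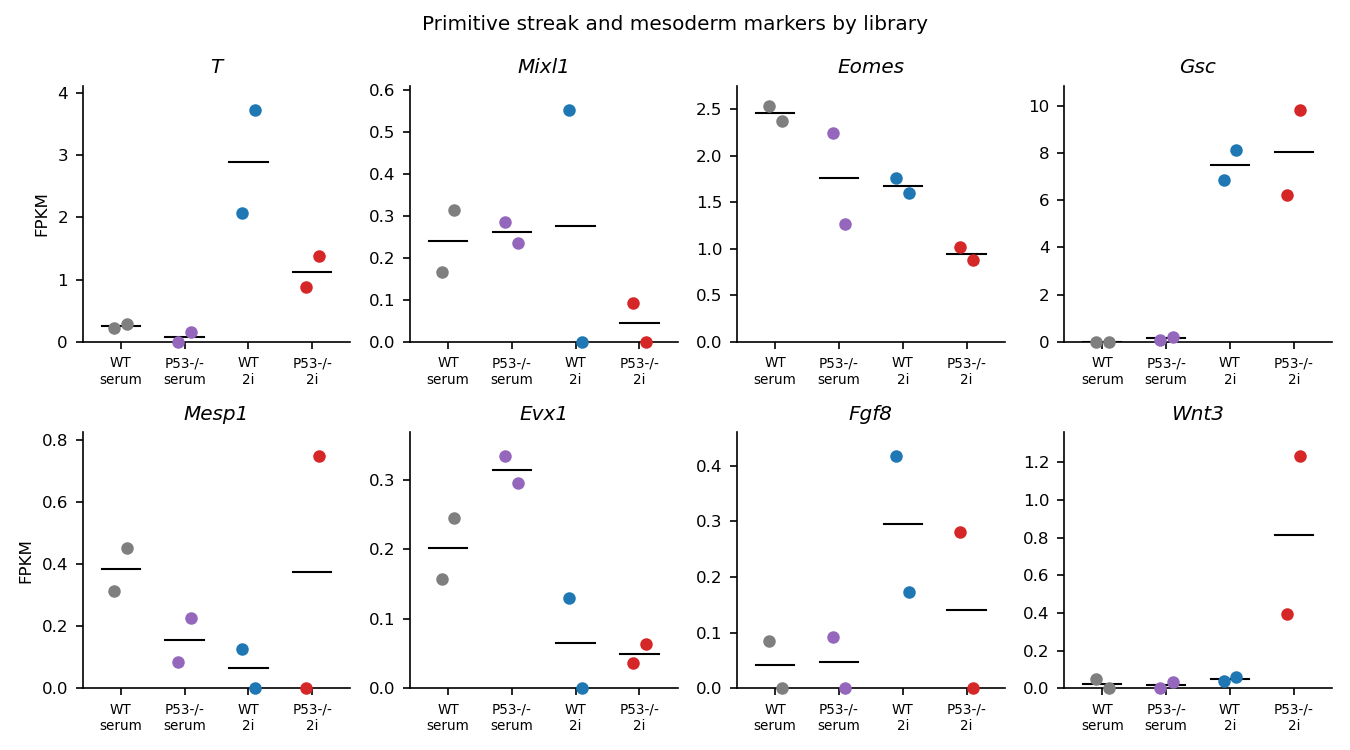
FPKM (y axis, linear, from 0) of each of the 8 markers in the 2 libraries of each group (points) with the group mean (black bars). Gsc and T were higher in both 2i groups, Eomes was lowest in P53-/- 2i, Wnt3 was above 0.1 FPKM in the P53-/- 2i libraries alone, and Mixl1, Mesp1, Evx1 and Fgf8 stayed under 0.8 FPKM in every library.

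The strongest contrast of the markers was between the cultures, and it lay in Gsc, the homeobox repressor of the anterior streak and organizer. Gsc was at 6.85 and 8.14 FPKM in WT 2i and at 6.23 and 9.83 FPKM in P53-/- 2i. It was listed at 0 in both WT serum libraries and was at 0.0769 and 0.205 FPKM in P53-/- serum. All 4 2i libraries were therefore above all 4 serum libraries, and the approximate fragment numbers were 44 to 63 against 0 to 2. In the limma fit the log2 difference between 2i and serum was 6.24 ± 0.39 (SE) in WT (adjusted p = 2.91e-05) and 5.09 ± 0.39 in P53-/- (adjusted p = 4.31e-05). The WT value is set by the pseudocount, since WT serum was listed at 0, and ran from 3.08 with a pseudocount of 1 to 9.55 with 0.01. The P53-/- value was 2.96 with a pseudocount of 1.

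T, the T-box factor that gives the streak and notochord their identity, showed the same direction at a lower level. T was at 2.06 and 3.72 FPKM in WT 2i and at 0.227 and 0.285 FPKM in WT serum. In P53-/- cells it was at 0.878 and 1.38 FPKM in 2i and at 0 and 0.161 FPKM in serum. The cultures did not overlap in either genotype, and fragment numbers were 15 to 39 in 2i and 0 to 6 in serum. The log2 difference was 3.02 ± 0.58 in WT (limma, adjusted p = 0.0028) and 2.90 ± 0.58 in P53-/- (adjusted p = 0.00315), and it stayed called without any 1 library. Its size depended on the pseudocount, from 1.60 to 3.40 in WT and from 0.97 to 4.75 in P53-/- between pseudocounts of 1 and 0.01, and it was called at both.

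Gsc and T reached the level required for testing only through the 2i libraries, so that they had to differ between the cultures once they were tested, and their number is no evidence of its own. Culture also moved much of the transcriptome: of the 12572 genes tested, 27.2% were called higher and 28.6% lower in 2i than in serum in WT, 55.7% in all, and 28% higher and 30.1% lower in P53-/-, 58.2% in all.

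The start of each of these genes is shown because both rose in 2i, together with that of Wnt3, which differed between the genotypes in 2i. The sequences come from the RefSeq-based promoter table (assembly GRCm38.p6, which is not the build of the data) and run 5′ to 3′ on the strand of the gene. They were cut where the annotation has an exon of the same gene, and exons of other genes were not checked. T lies on the plus strand at chr17:8434173-8434422 (250 bases), Gsc on the minus strand at chr12:104473331-104473486 (156 bases) and Wnt3 on the plus strand at chr11:103773925-103774149 (225 bases). Capitals mark the TCF/LEF core, CTTTGA or its reverse complement TCAAAG, the letters to which the DNA-binding partners of beta-catenin attach.
T: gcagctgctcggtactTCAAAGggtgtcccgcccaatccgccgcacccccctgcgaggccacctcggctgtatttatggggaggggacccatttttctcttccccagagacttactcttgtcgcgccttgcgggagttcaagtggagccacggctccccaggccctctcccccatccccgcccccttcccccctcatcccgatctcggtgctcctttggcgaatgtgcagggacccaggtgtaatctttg
Gsc: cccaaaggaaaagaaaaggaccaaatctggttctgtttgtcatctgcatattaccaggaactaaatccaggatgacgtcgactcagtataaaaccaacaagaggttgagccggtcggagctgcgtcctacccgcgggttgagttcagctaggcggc
Wnt3: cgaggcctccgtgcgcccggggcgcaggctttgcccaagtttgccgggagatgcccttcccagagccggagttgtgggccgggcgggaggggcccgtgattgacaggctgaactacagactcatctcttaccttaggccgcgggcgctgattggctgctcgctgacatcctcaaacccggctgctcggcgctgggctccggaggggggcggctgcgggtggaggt

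The T sequence held 1 such match, TCAAAG, whose first base lay 234 bases before the RefSeq start, and the Gsc and Wnt3 stretches held none. Of 32851 windows of 250 bases in the table, 13.8% held the core on either strand, so a match of this length is common. The T-box core TCACACCT or AGGTGTGA, in 1.12% of the windows, was in none of the 6 marker windows found. Both motifs were chosen after the sequences had been seen. Evx1, Mesp1 and Eomes also had an entry and are not printed, and Mesp1 had 2 matches to the core in a part that the annotation counts as exon. Mixl1 and Fgf8 had no entry.

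Eomes, the T-box factor needed for ingression of mesoderm and for definitive endoderm, was the only marker with over 0.8 FPKM in every library. It was at 2.53 and 2.37 FPKM in WT serum and at 1.76 and 1.60 FPKM in WT 2i. In P53-/- it was at 2.25 and 1.26 FPKM in serum and at 1.02 and 0.879 FPKM in 2i. The 2i libraries were lower than the serum libraries in each genotype, the opposite of T. The difference was called in P53-/- (log2 -0.77 ± 0.31, limma adjusted p = 0.0569) but not in WT (-0.52 ± 0.31, adjusted p = 0.174), where it was called with quantile normalization (-0.72, adjusted p = 0.0759). The difference of these differences was not past the threshold (log2 -0.25, adjusted p = 0.853), so that the genotypes were not shown to differ. The P53-/- call was lost without P53-/- 2i library 1 (adjusted p = 0.103), P53-/- 2i library 2 (0.18) or P53-/- serum library 1 (log2 -0.38, adjusted p = 0.285), and in a fit of the 2 groups alone (adjusted p = 0.12).

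Eomes is also a gene of the trophoblast, so the 10 markers of that lineage were read beside it. Their summed level was 5.43 to 12.1 FPKM in serum and 56.9 to 121 FPKM in 2i, the opposite direction to Eomes. Most of the sum was Krt8 and Krt18, keratins of simple epithelia that are not confined to trophoblast. Of the others, Krt7 reached 2.39 FPKM in its highest library, Ascl2 1.33 FPKM and Cdx2 1.046 FPKM. Tfap2a reached 0.575 FPKM, Hand1 0.542 FPKM and Elf5 0.185 FPKM. Gata3 was at or under 0.093 FPKM, and Tpbpa was at 0 in all libraries. The part of other cell types in the Eomes level was not tested.

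**Figure D2:**
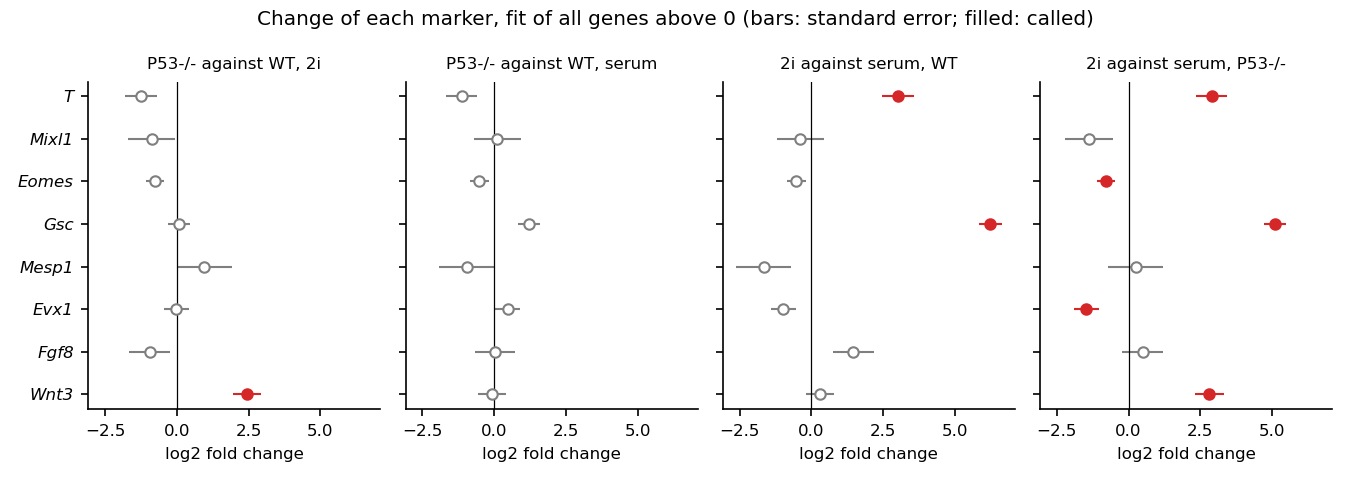
Log2 fold change of each marker (x axis, with standard error) in 4 comparisons, from the limma fit of all 18380 genes above 0. Filled red points were called: Wnt3 in P53-/- against WT in 2i, Gsc and T between the cultures in WT, and Gsc, T, Wnt3, Eomes and Evx1 between the cultures in P53-/-.

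The question of the P53 knockout was whether loss of P53 changes these genes in either culture. None of the 3 tested markers was called between P53-/- and WT in 2i, where 10.3% of all tested genes were called, 4.36% higher and 5.97% lower. T was 0.878 and 1.38 FPKM in P53-/- 2i against 2.06 and 3.72 FPKM in WT 2i, with both P53-/- libraries below both WT libraries. Its log2 difference was -1.26 ± 0.58 (limma, adjusted p = 0.222, unadjusted p = 0.0612). With a pseudocount of 1 it was -0.85 and passed the threshold (adjusted p = 0.0751). Eomes was likewise lower in both P53-/- 2i libraries, by a log2 difference of -0.77 ± 0.31, and missed the threshold (adjusted p = 0.169, unadjusted p = 0.0376), the 1 marker of the 3 with an unadjusted p under 0.05, beside 25.2% of all genes tested. Gsc overlapped between the genotypes, with a log2 difference of 0.07 ± 0.39 (adjusted p = 0.947). A p above the threshold does not show that Gsc was the same in both.

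Wnt3, the ligand that induces the streak, was the marker with the clearest separation of the genotypes in 2i. It was at 0.396 and 1.23 FPKM in P53-/- 2i, or about 12 and 21 fragments. WT 2i had 0.0399 and 0.0610 FPKM, or 1 fragment in each library. The serum libraries held 0 to 2 fragments, with 0 and 0.0338 FPKM in P53-/- and 0.048 and 0 FPKM in WT. In the fit of all genes Wnt3 was higher in P53-/- than in WT in 2i by a log2 difference of 2.44 ± 0.50 (limma, adjusted p = 0.0459), and 3.2% of the 18380 genes were called higher in that comparison. Both P53-/- 2i libraries were above every other library, but they also differed from each other.

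The Wnt3 call was fragile. It was lost on leaving out any of 7 of the 8 libraries, all but P53-/- 2i library 1, with adjusted p from 0.0318 to 0.164 over the 8, and without P53-/- 2i library 2 the log2 difference was 1.73 (adjusted p = 0.107). It was also lost with a pseudocount of 0.01 (log2 3.58, adjusted p = 0.147), and with a pseudocount of 1 the difference was 0.75 (adjusted p = 0.0889). Within P53-/- cells Wnt3 was higher in 2i than in serum by 2.81 ± 0.50 (adjusted p = 0.00354), where 46.4% of all genes were called, and this held without each library, at 0.80 with a pseudocount of 1 and at 5.08 with 0.01. The difference of the P53 effect between 2i and serum was 2.51 on the log2 scale (0.76 and 3.78 with pseudocounts of 1 and 0.01) and was not past the threshold (adjusted p = 0.257). It passed the threshold only without P53-/- 2i library 1 (3.22, adjusted p = 0.0913), and leaving out each of the other libraries gave 1.80 to 2.79 with adjusted p up to 0.498.

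Fgf8, the ligand that streak cells need to migrate away, was at 0.417 and 0.173 FPKM in WT 2i and at 0.280 and 0 FPKM in P53-/- 2i. It was at 0.0855 and 0 FPKM in WT serum and at 0.0930 and 0 FPKM in P53-/- serum. Its levels overlapped between the genotypes in both cultures, and it was not called in any comparison, where the shares of the 18380 genes called were 7.5% (P53-/- against WT in 2i), 0.522% (the same in serum), 0.152% (the difference of these), 44% (2i against serum in WT) and 46.4% (the same in P53-/-).

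The remaining 3 markers were detected by a few fragments. Mixl1, a homeobox factor of the streak and endoderm, was at 0.554 and 0 FPKM in WT 2i, 10 and 0 fragments, and at 0.0916 and 0 FPKM in P53-/- 2i. In serum it was at 0.167 and 0.315 FPKM in WT and at 0.285 and 0.237 FPKM in P53-/-. WT 2i library 1 therefore held nearly all of the Mixl1 fragments found in 2i.

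Mesp1, the bHLH factor of nascent and cardiac mesoderm, was at 0 and 0.749 FPKM in P53-/- 2i, the second value resting on 4 fragments. It was at 0.128 and 0 FPKM in WT 2i, at 0.0855 and 0.228 FPKM in P53-/- serum and at 0.315 and 0.453 FPKM in WT serum. Neither gene was called in any comparison, which does not show that their levels were the same.

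Evx1, a homeobox factor of the posterior streak, was at 0.334 and 0.295 FPKM in P53-/- serum and at 0.157 and 0.245 FPKM in WT serum, or 5 to 12 fragments. In 2i it was at 0.0359 and 0.0638 FPKM in P53-/- and at 0.130 and 0 FPKM in WT. All 4 serum libraries were above all 4 2i libraries, the opposite of Gsc and T. Between the cultures it was lower in 2i in P53-/- by a log2 difference of -1.47 ± 0.43 (limma over all genes, adjusted p = 0.0295), where 23.6% of all genes were called lower, with -0.97 in WT (adjusted p = 0.116, not called). The call was lost without P53-/- 2i library 1 (adjusted p = 0.143), P53-/- serum library 1 (0.132) or P53-/- serum library 2 (0.11), and with all libraries it was lost at both other pseudocounts (-0.32 with 1, -2.48 with 0.01).

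In serum none of the 3 tested markers was called between P53-/- and WT, where 1.02% of all tested genes were called. T was lower by a log2 difference of -1.13 ± 0.58 (limma, adjusted p = 0.499), on 0 and 3 fragments against 6 and 4. Gsc was higher by 1.21 ± 0.39 (adjusted p = 0.298), on 1 and 2 fragments against 0 and 0. With a pseudocount of 0.01 that Gsc difference became 3.77 and was called (adjusted p = 0.0442), a value that rests on 3 fragments in all. By limma, 1 of the 3, Gsc, had an unadjusted p under 0.05, beside 11.3% of all genes tested. None of the 3 was called for a P53 effect that differed between 2i and serum, where 0.207% of genes were called, and at an unadjusted p under 0.05 the count was also 0, beside 13.1% of genes. In 2i and in serum the P53-/- libraries were compared with WT libraries of their own culture, but the culture comparisons share all of these libraries.

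The signals that instruct the streak were read beside the markers. Of 28 such ligands, receptors and effectors of the Nodal, Bmp, Wnt and Fgf pathways, 24 were tested. Between P53-/- and WT in 2i, 1 rose and 2 fell, and 21 were not called, a share close to the 10.3% called over all genes tested. Their median log2 difference was -0.18, beside 0.02 over all genes tested. Nodal, the inducer of mesendoderm, was at 69.0 and 48.3 FPKM in WT 2i and at 18.8 and 17.2 FPKM in P53-/- 2i, a log2 difference of -1.68 ± 0.19 (limma, adjusted p = 0.00411). Pcsk6, a convertase that cleaves the Nodal precursor, was at 31.9 and 27.4 FPKM in WT 2i and at 11.96 and 12.3 FPKM in P53-/- 2i (log2 -1.28, adjusted p = 0.00257). Nodal and Pcsk6 were each below WT in both P53-/- libraries. Furin, also a convertase on the list, was at 2.48 and 2.25 FPKM in P53-/- 2i and at 2.06 and 1.43 FPKM in WT 2i. It was not called (log2 0.44, limma adjusted p = 0.369).

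Lefty1, a secreted inhibitor of Nodal that Nodal itself induces, moved opposite to Nodal. It was at 12.3 and 6.38 FPKM in P53-/- 2i and at 1.45 and 2.59 FPKM in WT 2i, a log2 difference of 2.13 ± 0.37 (limma, adjusted p = 0.0191). Lefty2, its relative, overlapped between the genotypes, at 44.8 and 24.5 FPKM in P53-/- 2i and at 37.5 and 21.5 FPKM in WT 2i. It was not called (log2 0.22, limma adjusted p = 0.768). Nodal and Pcsk6 kept their call under every alternative run, and Lefty1 lost it only in a fit of the 2 groups alone (adjusted p = 0.154). In serum none of the 24 was called between the genotypes, and Nodal was at 11.9 and 15.2 FPKM in P53-/- against 20.7 and 19.8 FPKM in WT (log2 -0.58, adjusted p = 0.311). The difference of the Nodal effect between the cultures was -1.10 on the log2 scale and missed the threshold (adjusted p = 0.19).

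**Figure D3:**
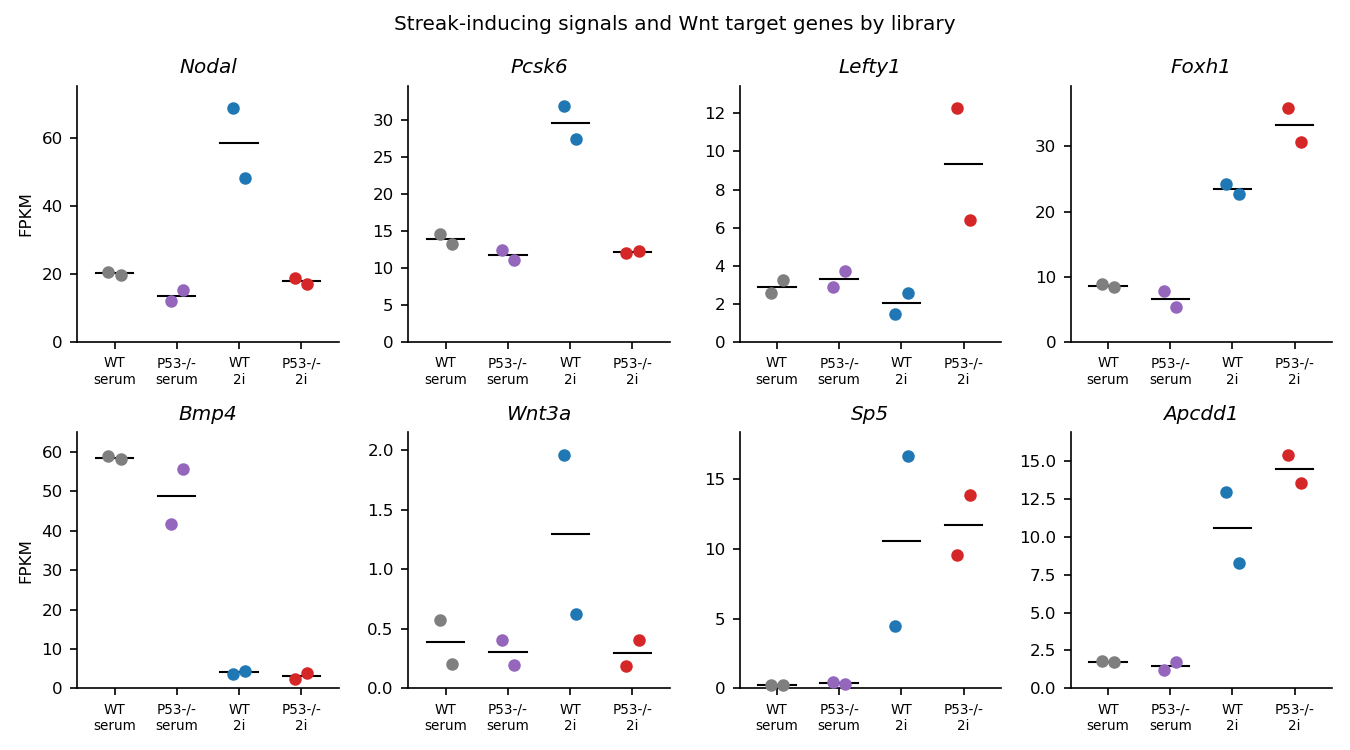
FPKM (y axis, linear, from 0) of 6 streak-inducing signals and 2 Wnt target genes in the 2 libraries of each group (points) with the group mean (black bars). Nodal and Pcsk6 were highest in WT 2i, Lefty1 in P53-/- 2i, Bmp4 was at 41.8 to 59.0 FPKM in serum and at 2.26 to 4.36 FPKM in 2i, and Sp5 and Apcdd1 were higher in 2i.

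Between the cultures in WT, 6 of these 24 genes were higher in 2i and 10 were lower, beside 27.2% and 28.6% over all genes, and the same counts were found in P53-/-. Bmp4, which induces the streak from the extra-embryonic ectoderm, was at 59.0 and 58.1 FPKM in WT serum and at 3.72 and 4.36 FPKM in WT 2i (log2 -3.83, limma adjusted p = 3.36e-05). Acvr2b, a receptor for Nodal, fell with it (log2 -2.23), while Nodal rose (1.51) and Foxh1, the partner of SMAD2/3 on Nodal targets, rose (1.43). In P53-/- cells Bmp4 and Foxh1 were called in the same directions (-3.97 and 2.35), whereas Nodal was not called (0.41, adjusted p = 0.0969, under 1.5-fold).

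Of 16 Wnt target genes, read because CHIR99021 is part of 2i, 11 were tested. In WT, 5 were higher and 3 lower in 2i, beside 27.2% and 28.6% over all genes, with a median of 0.97 beside -0.02 over all genes. In P53-/-, 3 were higher and 4 lower, beside 28% and 30.1%, with a median of 0.23 beside -0.03. Sp5, a zinc finger factor induced by Wnt in the streak, was at 4.50 and 16.6 FPKM in WT 2i and at 0.221 and 0.208 FPKM in WT serum (log2 4.80, limma adjusted p = 0.000246, and 3.02 with a pseudocount of 1). Apcdd1, a Wnt inhibitor, rose by 2.48 and Cdx1, a posterior homeobox gene, by 1.18. Ccnd2, cyclin D2, fell by 4.53 (log2 -2.94 with a pseudocount of 1). Sp5 passed the filter only through 2i and Ccnd2 only through serum, so that both had to differ between the cultures once tested and add nothing to the counts as evidence. Between P53-/- and WT in 2i none of the 11 rose and 2 fell, beside 4.36% and 5.97% over all genes, Ccnd2 (log2 -1.28, adjusted p = 0.0381) and Notum, a secreted Wnt inhibitor (-1.14, adjusted p = 0.0513). Leaving out P53-/- 2i library 1 ended the Ccnd2 call (adjusted p = 0.111), as did a pseudocount of 1 (log2 -0.28, adjusted p = 0.297) and a fit of the 2 groups alone (adjusted p = 0.117), and its 2i levels were only 0.0348 to 0.294 FPKM. For Notum, leaving out any of 5 libraries ended the call, both of P53-/- 2i, both of WT serum and WT 2i library 2 (adjusted p up to 0.199), as did a fit of the 2 groups alone (0.187). Sp5 and Apcdd1 were not called between the genotypes, at 9.56 and 13.8 FPKM and at 15.4 and 13.6 FPKM in P53-/- 2i.

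Genes downstream of the streak were mostly under the level required for testing. Of 23 genes of nascent mesoderm in the table, 9 were tested. In WT 2 were higher and 2 lower in 2i, beside 27.2% and 28.6% over all genes, and in P53-/- 2 were higher and 4 lower, beside 28% and 30.1%. Tcf15, a bHLH factor of paraxial mesoderm that is also expressed in ESCs, was at 71.9 and 69.6 FPKM in WT serum and at 11.3 and 9.52 FPKM in WT 2i (log2 -2.76, limma adjusted p = 7.88e-05). The summed level of the list, to which Tcf15 added the most in serum, was 62.1 to 103 FPKM in serum and 12.7 to 19.8 FPKM in 2i. Meox1, of the somites, was listed at 0 in all 2i libraries and was at 0.626 to 1.53 FPKM in serum, and Isl1, of cardiac progenitors, rose in 2i (log2 1.59, and 0.68 with a pseudocount of 1). Both passed the filter only through the culture in which they were higher. Dll3, 1 of the 2 called higher in 2i in P53-/- (log2 2.07, limma adjusted p = 0.0125), passed it only through P53-/- 2i. Kdr, a receptor of early blood and vessel progenitors, was higher in 2i by 0.76 (adjusted p = 0.0878), a call lost without WT 2i library 1 (0.245) or WT serum library 2 (0.187), and with all libraries lost in 3 of 8 settings (log2 down to 0.41, adjusted p up to 0.319). In P53-/- the Kdr difference was -0.04. The difference of these differences was not past the threshold (log2 -0.81, limma adjusted p = 0.517), so that the genotypes were not shown to differ.

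Between P53-/- and WT in 2i, Etv2, which drives blood and endothelial fate, rose (log2 2.80, adjusted p = 0.0853) and Tal1, a blood factor, fell (-1.41, adjusted p = 0.0632). Etv2 was at 1.09 and 1.93 FPKM in P53-/- 2i against 0.398 and 0 FPKM in WT 2i, and Tal1 at 0.217 and 0.343 FPKM against 0.902 and 0.891 FPKM. Etv2 passed the filter only through P53-/- 2i, so that its call is no evidence of its own. The Etv2 call held without WT 2i library 1 but was lost without any of the other 7 libraries (adjusted p up to 0.311), and with all libraries it was lost in 5 of 8 settings, with log2 values of 1.07 to 4.52. The Tal1 call was lost without either library of P53-/- 2i or of WT 2i or WT serum library 1 (adjusted p up to 0.179), and with all libraries in 3 of 8 settings, with log2 values of -1.68 to -0.57. Of 14 genes of the anterior streak, node and endoderm, 4 were tested and none was called between the genotypes in 2i, where 10.3% of all genes were called, and by limma 1 of them, Hhex, had an unadjusted p under 0.05, beside 25.2% of all genes. Foxa2 and Sox17, which mark endoderm, were under the filter, at no more than 0.153 and 1.09 FPKM.

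T and Eomes were last set beside the rest of their family, the T-box factors. Of 17 in the table, 9 were tested, T and Eomes among them. In WT, 5 were higher and 2 lower in 2i, beside 27.2% and 28.6% over all genes, and in P53-/- 5 were higher and 3 lower, beside 28% and 30.1%. Tbx18, Tbx2, Tbx15 and Tbx21 each rose in 2i in WT by log2 differences of 3.98, 3.85, 3.59 and 3.04, beside 3.02 for T. Like T, these 4 passed the filter only through the 2i libraries, with 0 to 0.273 FPKM in serum, so that they had to differ once tested and their number is no evidence of its own. With a pseudocount of 1 the 4 differences were 1.89, 1.36, 2.09 and 1.49, and that of Tbx21 was 1.91 without WT 2i library 1. Tbx15, a factor of limb and skin mesenchyme, was at 6.40 and 2.97 FPKM in WT 2i and at 0.270 and 0.273 FPKM in WT serum. Tbx3, which supports naive pluripotency, and Mga, a subunit of a repressive Polycomb complex, were lower in 2i (-0.74 and -1.10), although they were the most abundant of the family. With quantile normalization the Tbx3 difference was -0.57, under the limit of 1.5-fold.

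**Figure D4:**
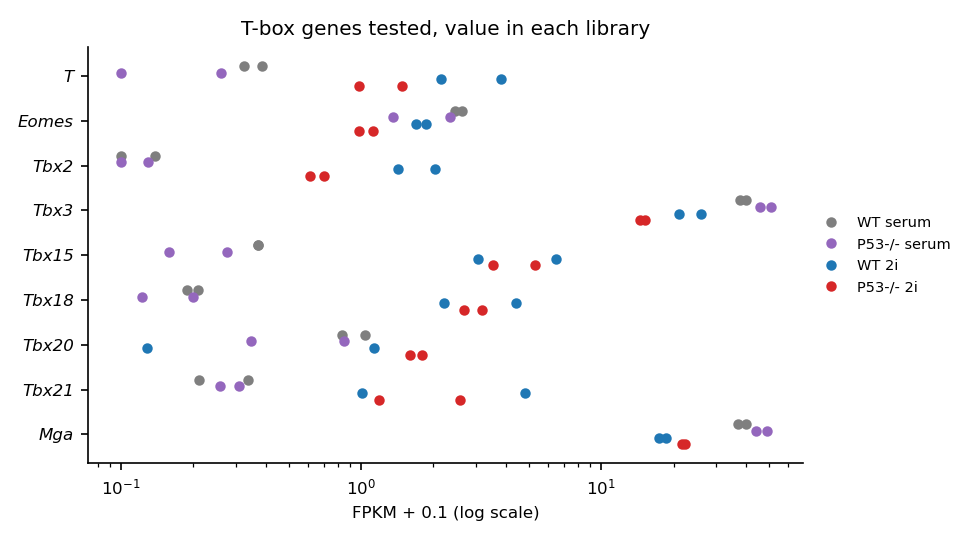
FPKM + 0.1 (x axis, log scale) of the 9 tested T-box genes in each library, coloured by group. For T, Tbx2, Tbx15, Tbx18 and Tbx21 the 2i libraries sit to the right of the serum libraries, and for Tbx3 and Mga to the left.

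Between P53-/- and WT in 2i 1 of the 9 was called, Tbx3, a share close to the 10.3% over all genes tested. It was at 15.1 and 14.4 FPKM in P53-/- 2i and at 25.9 and 20.9 FPKM in WT 2i (log2 -0.66 ± 0.14, limma adjusted p = 0.034). The call was lost without either P53-/- 2i library or without WT 2i library 1 (adjusted p of 0.0949 to 0.154, the first of these with a fold under 1.5) and in a fit of the 2 groups alone (0.166). Tbx2, a relative of Tbx3, was at 0.603 and 0.510 FPKM in P53-/- 2i against 1.94 and 1.33 FPKM in WT 2i and was not called (adjusted p = 0.195).

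The genes whose values ran most closely with each tested marker over the 8 libraries were found by Pearson correlation of log2(FPKM + 0.1), as a description, since all of these points share the split of the cultures. For Gsc they were Slc39a11 (r = 0.998), Sipa1l2 (0.996) and Mppe1 (0.996). For T they were Slc33a1 (0.988), Galns (0.985) and Cachd1 (0.984). For Eomes they were Upk1a (0.990), Sfn (0.980) and Agrn (0.971). Sfn, an epithelial 14-3-3 protein, was at 15.2 to 17.9 FPKM in 3 serum libraries and at 10.2 FPKM in P53-/- serum library 2, the library in which Eomes was also lower.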

How the data were processed

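Total RNA of G1-sorted ESCs was depleted of ribosomal RNA, reverse-transcribed with random primers and made into stranded libraries. The authors deposited 1 table of FPKM values, already scaled to transcript length and mapped fragments, with a column per library and a line per gene symbol. Per the labels, the authors' processing notes name STAR, Cufflinks and DESeq2 and the build mm9; versions, annotation and the use of strand in counting are not given in the sources used here, so reads of overlapping or antisense genes cannot be told apart. Of 12 samples, 4 (P21 knockout and WT in 2i) had no column and were not analysed here. Library numbers follow the order of the columns and pair nothing.

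From the table, log2(FPKM + 0.1) was tested with limma 3.58.1 (R 4.3.3) for the 12572 genes with a mean of at least 0.5 FPKM, in 1 fit of the 4 groups (4 residual degrees of freedom) with an eBayes trend and Benjamini-Hochberg adjustment. The adjusted p had to be below 0.1 and the fold change above 1.5 for a call. The contrasts were P53-/- against WT in each culture, their difference, and 2i against serum in each genotype. FPKM values are not counts, so no count model was run. Median-ratio factors of the libraries were 0.985 to 1.03, although summed FPKM, most of it from small RNA genes, ran from 6.70e+06 to 8.03e+07. The script was tested on simulated data. Alternatives changed the pseudocount, filter, scaling, samples fitted, trend and threshold, or left out each library.

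The markers, gene lists and tests were chosen with earlier results of these data known. Named genes are the 8 markers, Trp53 and, per list and contrast, up to 4 called genes with the largest change, plus genes set beside a marker. Promoter sequences are from RefSeq (GRCm38.p6), and 6 of the 8 markers matched. Figures used Python 3.11.15 and matplotlib 3.10.9.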

Additional observations from a re-analysis of the deposited data

Results flagged for a closer look

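For 10 of the list genes that passed the filter on mean FPKM, both P53-/- libraries lay on one side of WT in 2i and on the other side in serum. The difference of the P53 effect between 2i and serum on the log2 scale was tested with limma and did not pass the threshold for any of them. It was 0.92 for Foxh1 (adjusted p = 0.234), the partner of SMAD2/3, 0.46 for Ctnnb1, beta-catenin (0.348), and 0.75 for Apcdd1 (0.426). It was negative for Ccnd2 at -1.53 (adjusted p = 0.199), for Tbx3 at -0.96 (0.161) and for Hhex, of the anterior endoderm, at -0.86 (0.329). Among the ESC markers it was -1.13 for Klf4, a naive pluripotency factor (adjusted p = 0.102), and 0.54 for Dppa5a (0.512). Among the markers of other cell types it was -1.33 for Tubb3, a neuronal tubulin (0.101), and 2.65 for Krt7, a keratin of simple epithelia (0.307). None of the 8 streak and mesoderm markers showed this pattern. In P53-/- against WT in 2i, where 10.3% of tested genes were called, Klf4 was called lower (log2 -0.96, limma adjusted p = 0.00782). So were Tubb3 (-0.61, 0.054) and Col4a1, of the primitive endoderm list (-2.26, 0.0291). Krt7 was called higher (2.14, 0.0972), but passed the filter only through P53-/- 2i. The part of these genes in the streak marker differences was not tested.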

How the results depend on the processing

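The mean FPKM filter kept 5 of the 8 markers out of the main test, and leaving out 1 library left a lone library that is assumed to vary like the other groups. No paired analysis was possible because the columns carry no replicate number. Of 255 values of T, Eomes and Gsc recomputed under an alternative, 238 kept their direction and their side of the threshold. The number of markers called between P53-/- and WT in 2i, 0 of 3, became 1 with a pseudocount of 1 (T) and 1 over all genes (Wnt3), and in serum 1 with a pseudocount of 0.01 (Gsc). Between the cultures in WT it went from 2 to 3 with quantile normalization (Eomes). In P53-/- it went from 3 to 5 over all genes, and without single libraries from 2 to 3. The difference of the P53 effect on T between 2i and serum turned from -0.12 to 1.35 with a pseudocount of 0.01 and to 0.040 with quantile normalization, and ranged from -0.82 to 0.57 without single libraries. That of Eomes ranged from -0.64 to 0.14, and the Gsc difference in 2i from -0.26 to 0.39. The Evx1 difference between P53-/- and WT in 2i, -0.02 over all genes, was 0.64 with a pseudocount of 0.01 and -0.63 to 0.58 without single libraries (0.11 without P53-/- 2i library 1), and its interaction -1.10 to 0.10. These reversals concern values that were not called, and the cause was not tested. Evx1 between the cultures in P53-/- was not called with a pseudocount of 1 (-0.32) or 0.01 (-2.48), and the Eomes call was lost with a pseudocount of 1 (-0.48). The alternatives for Wnt3 and Evx1 were chosen after seeing the data.

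Over all genes, the 1299 calls between P53-/- and WT in 2i became 193 in a fit of the 2 groups alone, 771 at an adjusted p under 0.05, 771 and 491 without P53-/- 2i library 1 or 2, and 694 and 688 without WT serum library 1 or 2. The 128 calls in serum became 37 and 73 under the same 2 settings and 52 to 80 without a single library where they moved by over 1.5 times. The 26 calls of the interaction became 66 with a pseudocount of 1, 40 without the trend, 16 at an adjusted p under 0.05, and 69, 54 and 44 without WT 2i library 1, P53-/- serum library 1 or WT serum library 1.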
